A study of Mus musculus with 6 samples.

Results

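Cadherins and protocadherins are cell surface proteins that hold neurons to their neighbours and let them recognise each other. The 101 mouse protein-coding genes described here were chosen by name alone from the 21900 protein-coding genes of the RefSeq annotation (GRCm38.p6, which is mm10). They are the genes whose symbol starts with *Pcdh*, and the numbered *Cdh* genes, *Celsr1* to *Celsr3*, *Fat1* to *Fat4*, *Dchs1* and *Dchs2*. Because the 57 clustered protocadherin genes overlap, their clusters were counted once for each of the *Pcdha* (14 genes), *Pcdhb* (22 genes) and *Pcdhg* (21 genes) loci. This gave 47 members: 23 *Cdh* genes, 9 *Celsr*, *Fat* and *Dchs* genes, 12 non-clustered protocadherins and 3 clustered loci.

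The study asked how the RNA helicase MOV10, a cofactor of the miRNA-binding protein AGO2, affects AGO2 on brain RNAs. AGO2 chimeric eCLIP, which crosslinks AGO2 to RNA and also ligates the bound miRNA to its target, was run on whole brains of C57Bl/6J pups at P0 (postnatal day 0). There was 1 AGO2 IP library from a WT brain and 2 from *Mov10* Deletion brains (replicates 1 and 2, here DEL1 and DEL2), each from its own brain per the study. Per the study's methods, *Mov10* Deletion combines a floxed *Mov10* allele removed by Emx1-Cre, a driver best known from the neocortex and hippocampus, with a *Mov10* heterozygous background. A whole brain therefore holds many cells that Emx1-Cre does not reach, although the same methods report strongly reduced MOV10 protein in P0 brain lysates. With 1 WT brain no difference between genotypes was tested. In such bulk tissue, fewer cells of a type and less RNA per cell cannot be told apart.

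*Mov10* itself held 11, 9 and 9 AGO2 clusters (WT, DEL1 and DEL2, the order of every set of 3 values here). Of these, 1, 0 and 0 were enriched over input, and none of the libraries assigned a miRNA to it. All 5 neuronal marker genes looked at (*Tubb3*, *Map2*, *Stmn2*, *Snap25*, *Dcx*) held a miRNA target cluster in every library. Of the 4 radial glia and astrocyte markers 3 held one in each library, but only 2 (*Fabp7* and *Vim*) did so in all 3. Of the 3 oligodendrocyte lineage markers 1, 2 and 1 did so, and of the 2 endothelial markers 0, 0 and 1. Of the 3 microglial markers 0, 1 and 0 did so, and *Aif1* held no AGO2 cluster at all. The liver gene *Alb* held no target cluster, while both erythroid markers held one in WT and DEL1, and 1 of them in DEL2.

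Classical cadherins such as *Cdh2* (N-cadherin) bind like to like in a calcium-dependent way and connect to actin through catenins. Non-clustered protocadherins such as *Pcdh19* have fewer cytoplasmic partners and work in cell sorting, axon growth and synapses. The clustered loci make many surface isoforms by joining 1 of several variable exons to exons that all isoforms of a locus share, which is why their genes overlap. *Celsr*, *Fat* and *Dchs* genes encode giant cadherins of planar cell polarity. AGO2 is guided by the seed of its miRNA, nucleotides 2 to 8, most often to 3’UTRs.

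For every AGO2 cluster the deposited values were the log2 of IP over size-matched input and the −log10 of a p-value. A cluster was called enriched when both were at least 3, and a member was called enriched in a library when at least 1 such cluster lay inside it on its strand. Separate lists gave target clusters from chimeric reads, each with a miRNA and a score whose definition was not given in the sources used here. Read depth is not given in the sources used here, but whole IP and input reads that reproduce both values could be inferred for 97.6%, 99.5% and 100% of the members' enriched clusters. The libraries differed in how many reads an enriched cluster needed: the fewest IP reads were 16, 9 and 8, and the constant that multiplies IP over input reads to give the deposited fold was 0.845, 1.74 and 2.39. Total reads per library are unknown. Intervals on log2 values are exact 95% binomial intervals on these reads, and cover counting error only.

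Mature RefSeq sequences (GRCm38.p6) are shown, with the seed in capitals, for miRNAs that recur in the results below or have a site shown here. Of the 119 miRNAs assigned to members, 99 had a mature sequence in this table. The most frequent, miR-124-3p, and miR-466i-5p are named only.
miR-9-5p: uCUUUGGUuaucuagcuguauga
miR-125b-5p: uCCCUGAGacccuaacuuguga
let-7b-5p: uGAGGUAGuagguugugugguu
let-7c-5p: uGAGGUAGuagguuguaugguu
miR-484: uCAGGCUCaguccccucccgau
miR-16-5p: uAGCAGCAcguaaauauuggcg
miR-25-3p: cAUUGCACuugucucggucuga
The let-7 miRNAs share 1 seed and are counted together below, with miR-98-5p. The other seeds shown all differ from it and from each other.

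The last exon of members' transcripts was then searched for the 7-nt seed match of the miRNA assigned nearby. Of 56 assignments in the last 5000 nt of genes on chromosomes other than 18 whose miRNA had a sequence, 55 lay in the last exon, and 16 had a match within 40 nt of the cluster. The search did not cover miR-124-3p, which had 32, 26 and 15 assignments in the last 5000 nt of members, so it does not describe most of their sites. Transcripts were those of GENCODE vM39 on GRCm39, read by name, while clusters are on mm10, so the distance from the 3′ end links them and no coordinate was converted.

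The 3 sites that were found in WT and in at least 1 DEL library are shown as 30 nt of the 3’UTR, 5′ to 3′, with the match in capitals.
*Pcdh19* for miR-484, chrX:132483991-132484020 (minus strand, GRCm39): gtgaggggaatGAGCCTGatgacactatta
*Fat3* for miR-16-5p, chr9:15823571-15823600 (minus strand, GRCm39): attcatcagaaTGCTGCTtttgccaaatga
*Pcdh11x* for miR-25-3p, chrX:119816800-119816829 (plus strand, GRCm39): gagacactgaaGTGCAATagctaagcccaa
For the WT clusters, windows of the same length and distance held the match in 2.61% of 21172 protein-coding transcripts for GAGCCTG, in 3.41% of 13936 for TGCTGCT and in 0.531% of 8093 for GTGCAAT, read on the transcript's strand only. A match describes the letters and does not show that the site is used.

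AGO2 clusters lay in nearly all members, but enriched clusters lay in fewer. An AGO2 cluster lay in 41, 44 and 44 of the 47 members, beside a background of 61.1%, 64.5% and 64.5% of the 21468 protein-coding genes with a known strand. In WT, 19 members (40.4%) were enriched, beside 12.5% of these genes. In DEL1 and DEL2, 32 and 30 members were enriched, with backgrounds of 29.3% and 23.0%. The members enriched in DEL1 and DEL2 alike numbered 28 (59.6%, background 17.4%), and those enriched in all 3 libraries 18 (38.3%, background 9.71%). These are shares of genes of any length, and longer genes hold more clusters. Counted over clusters, the members were close to the background: 127 of 5330 (2.38%, interval 1.99 to 2.83%) were enriched in WT, 434 of 9083 (4.78%, 4.35 to 5.24%) in DEL1 and 252 of 9088 (2.77%, 2.45 to 3.13%) in DEL2. Over all protein-coding genes the shares were 2.06%, 5.14% and 3.08%. The members' median log2 was 0.56, 0.80 and 0.67, each below the 0.76, 1.12 and 1.25 over all of these genes' clusters.

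**Figure D1:**
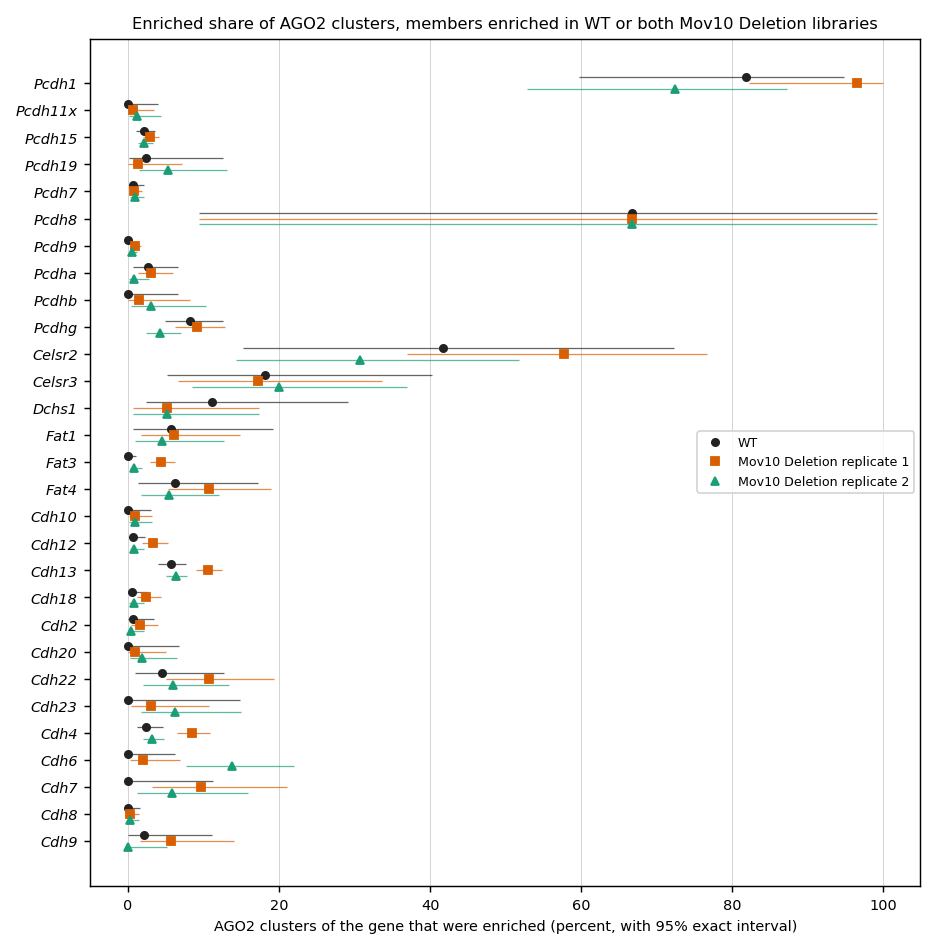
Percent (horizontal axis) of each member's AGO2 clusters that were enriched in WT (circles), DEL1 (squares) and DEL2 (triangles), with exact 95% intervals as lines, for the 29 members enriched in WT or in both DEL libraries. *Pcdh1* and *Pcdh8* lie at 66.7% or above in every library, and *Celsr2* at 30.8% or above.

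*Pcdh1*, a non-clustered protocadherin of epithelia and brain, carried AGO2 over most of its clusters. Of its AGO2 clusters, 18 of 22 were enriched in WT, 28 of 29 in DEL1 and 21 of 29 in DEL2. Its median log2 was 3.81, 4.50 and 3.95, and its highest 5.95, 5.68 and 5.71. All 3 libraries were thus high, and the intervals of the enriched share overlapped. The enriched clusters filled much of the last 5000 nt of the gene (RefSeq gene chr18:38185914-38212048, minus strand): of 22, 26 and 26 clusters there, 18, 26 and 21 were enriched. The miRNA assignment with the highest score of any member also lay here. The miR-124-3p target cluster at chr18:38189748-38189801, 3834 nt before the gene's end, scored 128.5 in WT, and the DEL cluster over the same place scored 83.0 in DEL1 and 37.4 in DEL2. The highest AGO2 cluster within this WT target had a log2 of 5.28 (4.04 to 6.92, from 230 IP and 5 input reads). The DEL cluster there (chr18:38189737-38189837) had 4.64 in DEL1, where no reads could be inferred, and 4.31 in DEL2 (3.45 to 5.31, from 100 IP and 12 input reads). It was the highest under the DEL target in DEL1, while in DEL2 another cluster there was higher, at 4.58. Scores are not normalized between libraries, so their order over libraries is not read as a change.

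*Pcdh8*, also called arcadlin and known for activity-dependent turnover of N-cadherin, is a short gene (4541 nt) with only 3 AGO2 clusters in each library, and 2 of the 3 were enriched in each. With so few clusters the interval on this share runs from 9.43 to 99.2%. The higher of them had a log2 of 3.84 in WT (2.76 to 5.19), 4.34 in DEL1 (3.15 to 5.84) and 5.06 in DEL2 (3.42 to 7.40), so the intervals overlapped. A miR-124-3p target cluster lay on it in every library, at chr14:79767210-79767296 in WT, 438 nt before the gene's end, and scored 49.9, 33.1 and 25.8. A miR-9-5p cluster stood closer to the end, 211 nt before it, and scored 21.7, 6.99 and 12.7, on no enriched AGO2 cluster. The search for seed matches described above found no match to miR-9-5p within 40 nt of this cluster in any library. No other member had an assignment to each of miR-124-3p and miR-9-5p within its last 5000 nt that recurred in all 3 libraries.

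The other non-clustered protocadherins held few enriched clusters among many. *Pcdh19*, an X-linked gene whose loss causes a form of epilepsy, had 1 of 42, 1 of 75 and 4 of 75 clusters enriched. Its enriched cluster near the 3′ end had a log2 of 3.97 in WT (2.01 to 7.06), 5.55 in DEL1 (2.95 to 10.91) and 4.84 in DEL2 (2.08 to 10.26). The miR-484 target cluster lay on it in each library (chrX:133583202-133583312 in WT), with scores of 18.8, 6.88 and 3, and covers the site shown above. Input under this cluster was only 2, 1 and 1 reads, which is why the intervals are wide. *Pcdh15*, a tip-link protein of hair cells, had 12 of 573, 30 of 1022 and 22 of 1022 clusters enriched, and its nearest enriched cluster to the gene's end lay 52538, 155268 and 20472 nt away. *Pcdh7* had 2 of 333, 4 of 552 and 5 of 552 enriched, and its highest log2 was at the threshold in WT, 4.38 in DEL1 and 4.71 in DEL2. *Pcdh11x* had 0 of 91, 1 of 163 and 2 of 163. *Pcdh10* and *Pcdh17* were enriched in DEL2 alone, with 3 of 39 and 2 of 103 clusters, and *Pcdh12*, *Pcdh18* and *Pcdh20* in no library.

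*Pcdh9* held many target clusters and few enriched AGO2 clusters. It held no enriched cluster among 711 in WT, and 10 and 6 among 1046 in the DEL libraries, and its median log2 was −0.10, 0.06 and −0.12. Yet it held more target clusters than any other member in each library: 43, 66 and 32, or 21.0%, 19.8% and 23.2% of all the members' target clusters. Their median distance from the gene's end was 660362, 592326 and 672928 nt in a gene of 879135 nt. Of its assignments, 22 of 45, 27 of 69 and 15 of 32 were to miR-124-3p. The highest score was 42.3 in WT, for a miR-124-3p cluster at chr14:93800971-93801089, and the overlapping DEL cluster scored 23.7 and 15.9. The AGO2 log2 there was 2.54, 2.77 and 2.84, below the threshold in each library. *Pcdh9* also held the most AGO2 clusters of the non-clustered protocadherins in each library. Target clusters without enrichment were not particular to it. *Pcdh17* had 7 target clusters in WT with 0 of 59 AGO2 clusters enriched, and *Pcdh10* had 10 in DEL1 with 0 of 39.

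Among the clustered loci, *Pcdhg* held most of the enriched clusters: 18 of 221 in WT (8.14%), 30 of 328 in DEL1 (9.15%) and 14 of 332 in DEL2 (4.22%). They gathered far from the 3′ end, at a median of 28466, 28379.5 and 28271 nt before it, and 0 of the 7, 9 and 10 clusters in the last 5000 nt was enriched. Of these clusters, 18 of 18, 28 of 30 and 12 of 14 also lay in the transcribed pseudogene *Pcdhgb8*, and all lay in the overlapping protein-coding genes *Gm37013* and *Gm38666*, so they cannot be assigned to a single gene. The *Pcdha* locus had 4 of 152, 8 of 259 and 2 of 259 clusters enriched. *Pcdhb*, whose genes have a single exon each, had 0 of 54, 1 of 66 and 2 of 67. Together the 3 loci held 22, 39 and 18 enriched clusters. The same numbers of enriched clusters, over all members, also lay in a gene that is not a member.

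The shared 3′ ends of *Pcdha* and *Pcdhg* carried chimeric reads. In *Pcdha* a miR-124-3p target cluster at chr18:37187417-37187517, in the end that all isoforms share, scored 32.6, 43.0 and 22.11, the highest of the clustered loci. The AGO2 log2 there was 2.06, 1.99 and 1.75, so it was on no enriched cluster. In *Pcdhg* a miR-124-3p cluster 281 nt before the end scored 11.4, 3.65 and 3.15. Both of these target clusters also lay in *Gm37013* and *Gm38666*. *Pcdhb* held 0, 1 and 2 target clusters.

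Among the polarity cadherins, *Celsr2*, *Celsr3* and *Dchs1* held most of their enriched clusters in the last 5000 nt. *Celsr2*, which shapes dendrites and ependymal cilia, had 5 of 12, 15 of 26 and 8 of 26 clusters enriched, of which 5, 10 and 6 lay in the last 5000 nt. But 10, 18 and 18 of all its clusters lay there too. Their median log2 was 2.88, 3.09 and 2.40, and 2.10, 3.30 and 1.75 in the rest of the gene. *Celsr3*, needed for axon tracts of the forebrain, had 4 of 22, 6 of 35 and 7 of 35 enriched. Of these, 3, 6 and 4 lay in its last 5000 nt, among 8, 11 and 11 clusters there. The highest cluster under the *Celsr3* miR-124-3p site (chr9:108851913-108851964 in WT) had a log2 of 3.32 in WT (2.01 to 4.99), 5.80 in DEL1 (3.22 to 11.15) and 4.50 in DEL2 (2.45 to 7.65), which overlap. The target scored 17.3, 20.1 and 8.59. In *Celsr2* the miR-124-3p cluster 685 nt before the end scored 31.8, 31.9 and 18.6 and was on an enriched AGO2 cluster in WT and DEL2 and not in DEL1, where the log2 was 2.50.

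*Dchs1*, the large ligand of *Fat4*, had 3 of 27, 2 of 39 and 2 of 39 clusters enriched. Near its very end, log2 values reached 4.34 in WT, 5.44 in DEL1 and 6.21 in DEL2, the last being the highest of any member in that library but resting on 31 IP reads and 1 input read (interval 3.62 to 11.56). *Fat1* had 2 of 35, 4 of 66 and 3 of 66 enriched, of which 2, 1 and 2 lay in the last 5000 nt. In *Fat4* these were 3 of 48, 10 of 93 and 5 of 93, of which 0, 1 and 0 lay there. *Fat3* had 0 of 345, 28 of 638 and 5 of 638, of which 0, 2 and 0 lay there. Its miR-16-5p site shown above was assigned in WT and DEL1, with scores of 3 and 5, and not in DEL2. *Celsr1*, which is used mostly in dividing progenitors, was enriched in DEL1 alone (6 of 45), and *Dchs2* and *Fat2* in no library.

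The plot of the last 5000 nt shows this layout. Over the members together, 37 of 248 clusters in the last 5000 nt were enriched in WT (14.9%), 56 of 331 in DEL1 (16.9%) and 46 of 333 in DEL2 (13.8%), and over all protein-coding genes 7.07%, 12.5% and 7.39%. *Pcdh1* held 18, 26 and 21 of these enriched clusters. Without it the members' shares were 8.41% (5.14 to 12.8%), 9.84% (6.74 to 13.7%) and 8.14% (5.34 to 11.8%), and each interval holds the share over all genes, a comparison chosen after the values were seen. In the rest of the gene bodies 1.77%, 4.32% and 2.35% of the members' clusters were enriched, beside 1.32%, 4.20% and 2.53% over all genes.

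**Figure D2:**
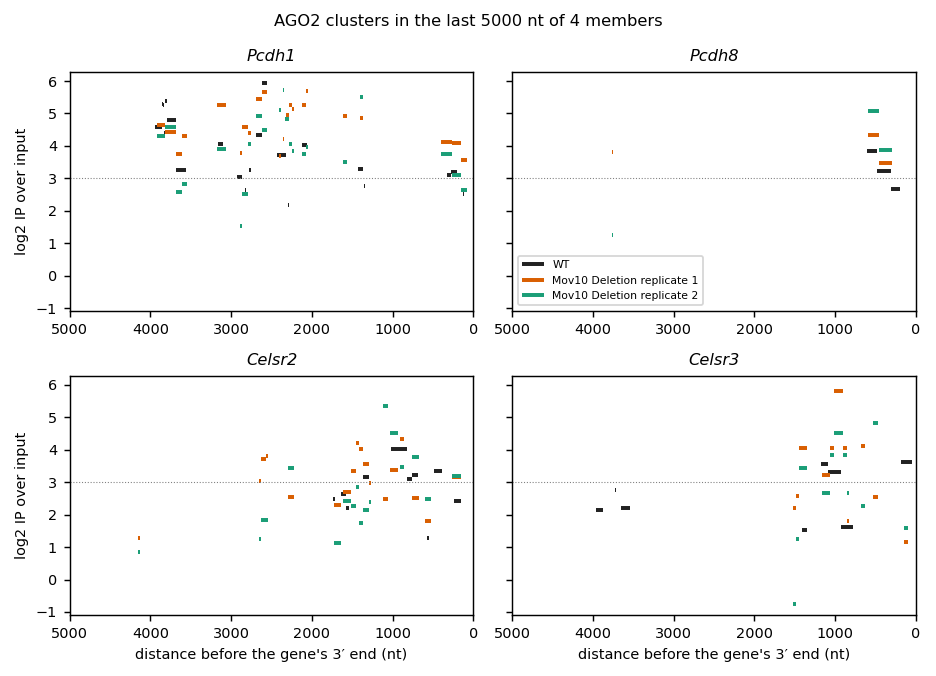
The log2 IP over input (vertical axis) of each AGO2 cluster in the last 5000 nt of *Pcdh1*, *Pcdh8*, *Celsr2* and *Celsr3* against its distance in nt before the gene's 3′ end (horizontal axis), each bar as long as its cluster, in WT, DEL1 and DEL2. The dotted line is the threshold of 3, which most *Pcdh1* clusters pass in every library (18 of 22, 26 of 26 and 21 of 26).

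The *Cdh* genes gave the most clusters and the most that were enriched far inside genes. *Cdh13* (T-cadherin), a member with a lipid anchor in place of a cytoplasmic tail, had 36 of 637 clusters enriched in WT (5.65%), 130 of 1225 in DEL1 (10.6%) and 77 of 1225 in DEL2 (6.29%). These were the highest counts of any member. None lay in the last 5000 nt of the gene, and their median distance from the end was 292259, 422586 and 348414 nt. Their median input was 2, 1 and 1 reads, so single log2 values such as 5.66 in WT (3.13 to 10.99, from 60 IP reads and 1 input read) have wide intervals. *Cdh4* (R-cadherin) had 9 of 369, 57 of 672 and 21 of 672 enriched, *Cdh22* 3 of 66, 9 of 84 and 5 of 84, and *Cdh12*, *Cdh18* and *Cdh2* at least 1 in each library. *Cdh2* itself had 1 of 157, 4 of 259 and 1 of 259 enriched. *Cdh15*, *Cdh16* and *Cdh17*, best known from muscle, kidney and gut, held no AGO2 cluster in any library, and *Cdh1* (E-cadherin) and *Cdh3* (P-cadherin) no enriched one.

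Between genotypes, 10 members were enriched in DEL1 and DEL2 but not WT (*Cdh10*, *Cdh20*, *Cdh23*, *Cdh6*, *Cdh7*, *Cdh8*, *Fat3*, *Pcdh11x*, *Pcdh9* and *Pcdhb*), beside a background of 7.68% of genes, and 0 in WT alone, beside 0.675%. *Cdh9* was enriched in WT and DEL1. The 10 members rest mostly on few reads. Their enriched clusters with the highest log2 had 9 to 20 IP reads and 1 or 2 input reads in DEL1. In DEL2 these had 8 to 18 IP reads and 1 to 3 input reads, where WT needed 16 IP reads. Other enriched clusters of these members had up to 34 IP reads in DEL1 (*Fat3*) and 36 in DEL2 (*Cdh10*). Except for *Fat3*, with 2 clusters, none of the 10 members had a cluster enriched at the same place in both DEL libraries. With 16 IP reads required in every library, only 1 member was in this class (*Pcdh9*), and 2 members (*Cdh22* and *Cdh9*) were enriched in WT alone. No share over all protein-coding genes is given with this minimum, so these counts have no background and are not read as particular to members. With 1 WT library, genotype and the reads needed in each library cannot be told apart.

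The DEL libraries also show how far single clusters repeat. They shared 8995 member clusters with the same coordinates, of 9083 and 9088. Of these, 73 were enriched in both libraries, which is 16.8% of the enriched clusters of DEL1 and 29.0% of those of DEL2. The log2 in DEL1 minus that in DEL2 had an SD of 2.07, and of 1.72 over the 320 shared clusters in the last 5000 nt. Across the shared clusters, which lie in the same genes and are not independent, Pearson's r of log2 between the libraries was 0.07, and 0.46 over those 320. Of the 73 clusters, *Cdh13* held 23, *Pcdh1* 21 and *Pcdhg* 9. Of the 73, 49 overlapped a cluster enriched in WT, and of the 127 clusters enriched in WT, 50 overlapped one enriched in both DEL libraries, 41 overlapped one enriched in only 1 of them and 36 overlapped none.

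Chimeric reads gave 205 target clusters in members in WT, 333 in DEL1 and 138 in DEL2, or 1.19%, 1.29% and 1.17% of all target clusters in protein-coding genes. They fell in 31, 33 and 32 members, beside backgrounds of 28.5%, 34.1% and 24.1% of genes, and 29 members (61.7%) held one in all 3 libraries, beside 17.1%. These too are shares of genes of any length, and lengths were not matched. Of all AGO2 clusters in protein-coding genes the members held 1.56%, 1.55% and 1.55%, more than their share of target clusters. Besides *Pcdh9*, many target clusters lay in *Pcdh7* (12, 18 and 7), *Cdh13* (8, 32 and 12), *Cdh2* (9, 21 and 5), *Fat3* (10, 13 and 8), *Pcdh15* (10, 15 and 7) and *Pcdhg* (8, 16 and 5). DEL1 was highest for each of these 6, as it was in total. The 12 members without a target cluster in any library include all 3 without an AGO2 cluster, *Celsr1* and *Fat2*.

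**Figure D3:**
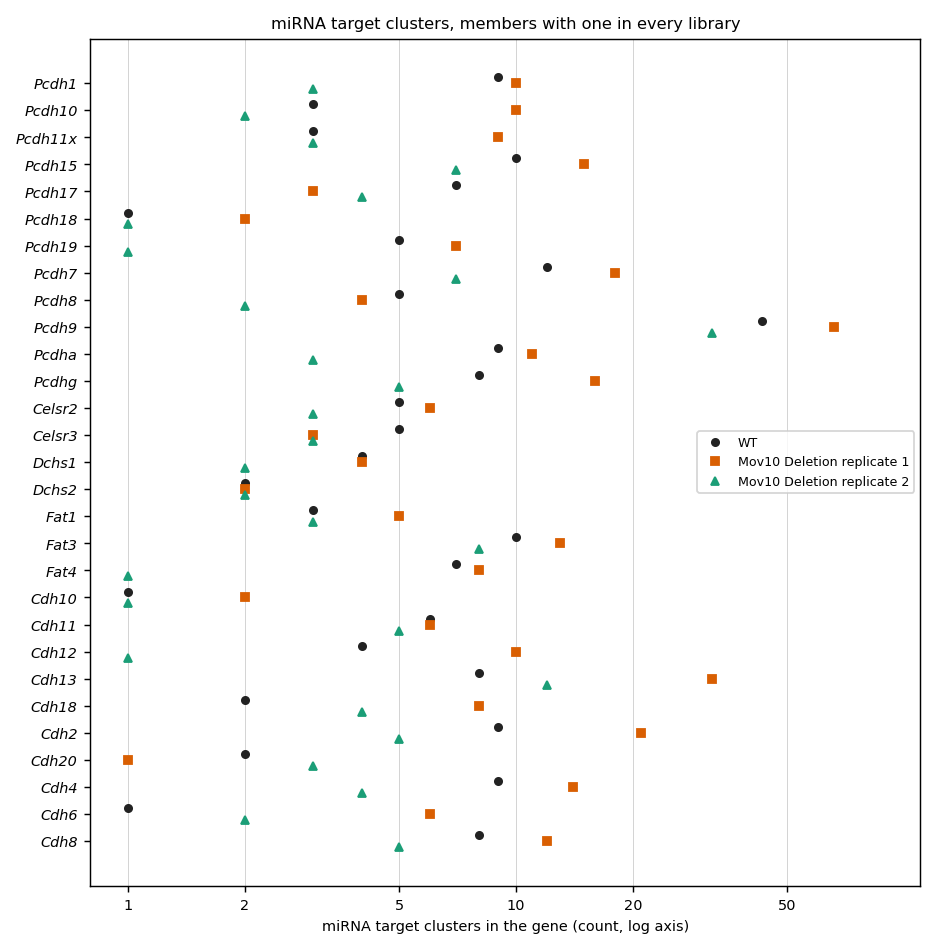
Number of miRNA target clusters (horizontal log axis) in WT (circles) and DEL1 (squares) and DEL2 (triangles) for the 29 members that held one in every library. *Pcdh9* holds the most in each library, with 43, 66 and 32, and the other members 32 or fewer.

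Over the members together, a smaller share of target clusters lay near the 3′ end than over all protein-coding genes, and the families differed. In the last 1000 nt lay 10.7% (6.85 to 15.8%), 6.91% (4.43 to 10.2%) and 7.97% (4.05 to 13.8%) of them, beside 17.8%, 13.2% and 14.3% over all of these genes. In the last 5000 nt it was 26.3%, 18.02% and 19.6%, beside 43.3%, 34.7% and 36.9%. The intervals in the last 1000 nt lie below the share over all genes, but members are long genes and lengths were not matched. With a score of at least 5 the members' shares in the last 1000 nt were 16.3%, 7.94% and 13.5%, of 92, 126 and 52 target clusters. In the families, 13.0%, 5.83% and 6.82% of target clusters of *Cdh* genes lay in the last 5000 nt, 33.3%, 36.6% and 31.8% of those of *Celsr*, *Fat* and *Dchs* genes, and 27.6%, 19.4% and 19.4% of those of non-clustered protocadherins. For the clustered loci it was 8 of 17 (47.1%), 10 of 28 (35.7%) and 5 of 10, beside the 43.3%, 34.7% and 36.9% over all genes. These counts are small and include 0, 1 and 2 target clusters of *Pcdhb*. Its genes are so short that all of its AGO2 clusters lay in the last 5000 nt, so these loci are not read as differing from all genes. Of the members' target clusters in the last 5000 nt, 19 of 54, 13 of 60 and 10 of 27 lay on an enriched AGO2 cluster, and of those elsewhere 10 of 151, 13 of 273 and 0 of 111. At any position, 14.1%, 7.81% and 7.25% of the members' target clusters lay on one. Over all protein-coding genes these shares were 15.0%, 11.7% and 11.8%, and no such share is given for the last 5000 nt. *Pcdh1* alone held 7, 6 and 3 of the members' target clusters that lay on an enriched AGO2 cluster.

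The miRNAs assigned most often to members were also frequent over all genes. The neuronal miR-124-3p made up 115 of 233 assignments in WT (49.4%, 42.8 to 56.0%), 131 of 351 in DEL1 (37.3%, 32.2 to 42.6%) and 48 of 144 in DEL2 (33.3%, 25.7 to 41.7%). Over all protein-coding genes it made up 43.5%, 35.6% and 37.8%, each inside the members' interval. The progenitor and neuronal miR-9-5p made up 10.7%, 9.12% and 5.56% of the members' assignments (over all genes 9.28%, 6.70% and 6.89%). The let-7 family made up 7.73%, 7.69% and 8.33%, miR-125b-5p 4.72%, 3.42% and 4.17%, and miR-466i-5p 3.86%, 5.41% and 5.56%. The members' 95% intervals for these miRNAs held the share over all genes in every library. In WT, 27 of the 31 members with a target cluster had one assigned to miR-124-3p. Without *Pcdh9* the miR-124-3p share was 49.5%, 36.9% and 29.5%.

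**Figure D4:**
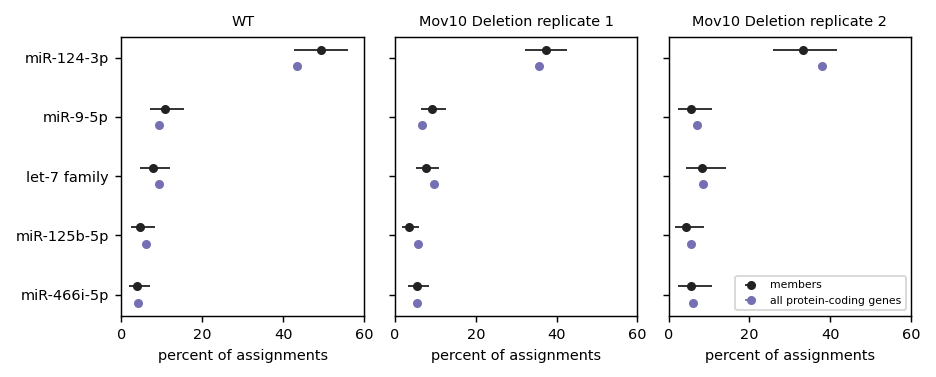
Percent of miRNA assignments (horizontal axis) to 5 miRNAs or families in the members (black, with exact 95% intervals) and in all protein-coding genes (violet), for WT and each DEL library. miR-124-3p leads in each library, with 49.4%, 37.3% and 33.3% of the members' assignments.

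Of the 233 assignments in WT, 30 were met by an overlapping cluster with the same miRNA in both DEL libraries. They lay in 17 members, with 7 in *Pcdh9*, 4 in *Pcdh1*, 3 in *Pcdh8*, 2 each in *Pcdh15* and *Cdh13*, and 1 in each of the other 12. Of the 30, 24 were to miR-124-3p. The others were miR-9-5p on *Pcdh8* and *Pcdh15*, miR-9-3p on *Pcdh9*, miR-7a-5p on *Pcdh11x*, miR-484 on *Pcdh19* and miR-466f-3p on *Cdh13*. The search for seed matches found none for miR-9-5p on *Pcdh8* or miR-7a-5p on *Pcdh11x* in any library. Of all 30, 16 lay in the last 5000 nt of the gene and 13 over 100000 nt from its end. An enriched AGO2 cluster lay beneath 8 of them in every library, in *Pcdh1*, *Pcdh8*, *Celsr3* and *Pcdh19*, and beneath 17 in none. Neighbouring WT clusters of *Pcdh1* and of *Pcdh8*, all to miR-124-3p, met the same DEL cluster. These counts of assignments are therefore higher than the number of separate places. In *Cdh2* the shared miR-124-3p cluster lay 160227 nt before the end (chr18:16749104-16749207) and scored 21.3, 17.0 and 10.8.

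Outside these 30, most assignments did not repeat. Of the WT assignments, 83 (35.6%) were met in DEL1 and 38 (16.3%) in DEL2, and between the DEL libraries 33 were shared, 9.40% of those of DEL1 and 22.9% of those of DEL2. All 33 had identical coordinates in both DEL libraries, while 0 had identical coordinates in WT and DEL1. Whether the DEL clusters were called on both libraries together is not given in the sources used here.

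**Figure D5:**
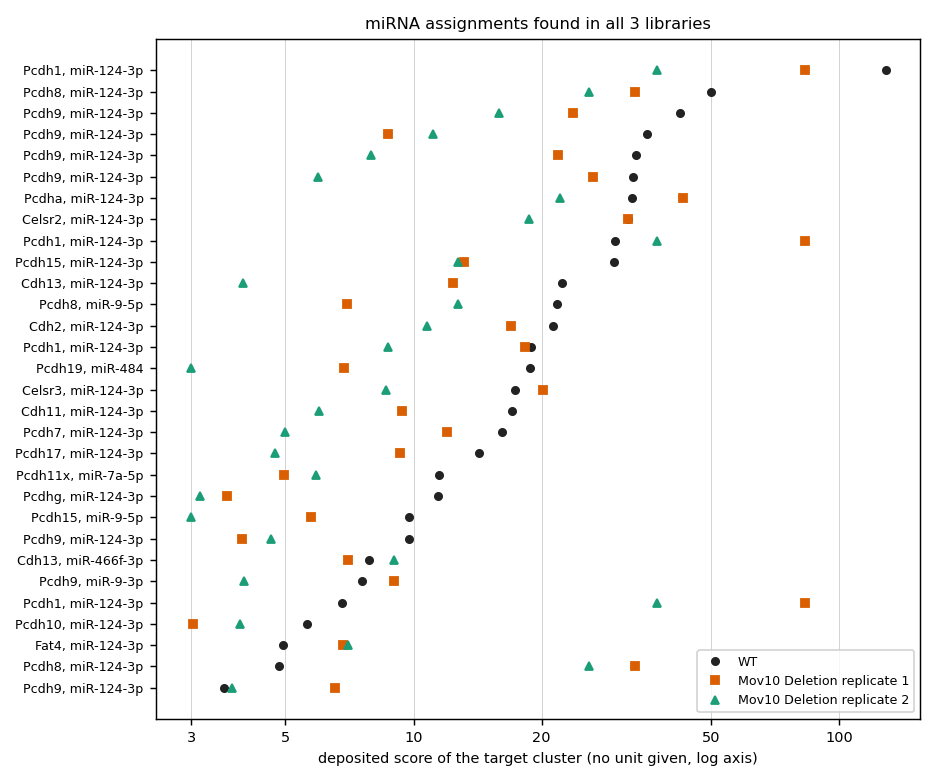
Deposited score (horizontal log axis, no unit) of the 30 WT assignments (circles) that DEL1 (squares) and DEL2 (triangles) also held, 1 row each, ordered by the WT score. The miR-124-3p assignment of *Pcdh1* is at the top with 128.5, 83.0 and 37.4, and neighbouring WT clusters of *Pcdh1* and *Pcdh8* meet the same DEL cluster and so repeat its scores, while for *Celsr2* the WT point lies beneath that of DEL1.

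Proteins that work with cadherins were counted from a list of 39 genes. Of these, 15 were enriched in WT (background 12.5% of genes), 27 in DEL1 (29.3%), 22 in DEL2 (23.0%) and 14 in all 3 (9.71%). The backgrounds are shares of genes of any length, and lengths were not matched. No share of clusters is given for the partner genes, so these counts are not read as particular to them. The 14 were the catenin genes *Ctnna2*, *Ctnnd1* and *Ctnnd2*, the calsyntenins *Clstn1* and *Clstn2*, 7 of the 10 planar polarity partners of *Celsr* (*Dvl2*, *Dvl3*, *Fjx1*, *Fzd3*, *Prickle1*, *Prickle2* and *Vangl2*), and the protocadherin effectors *Ptk2* and *Wasf1*. Another 6 were enriched in DEL1 and DEL2 but not WT (*Afdn*, *Clstn3*, *Ctnnb1*, *Cyfip2*, *Nckap1* and *Pkp4*; background 7.68%), and 0 in WT alone (0.675%). The minimum of 16 IP reads was not applied to these partner genes. None of the 8 desmosomal and *Cdhr* cadherins of the list was enriched in any library.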

How the data were processed

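The 3 AGO2 IP libraries were analysed from the deposited cluster lists (mm10). The 3 inputs entered only through the IP over input values. Per the study's methods and processing notes, the authors pruned molecular identifiers with UMI-tools 1.1.1, trimmed with cutadapt 3.2, mapped with STAR 2.7.7a and, for miRNA parts of chimeric reads, Bowtie 1.2.3, and called clusters with CLIPper. AGO2 clusters carry, as deposited, a log2 fold over input and the −log10 of a p-value. Target clusters carry, as deposited, a miRNA and a score. Whether clusters were called per brain is not given in the sources used here.

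Clusters were placed wholly inside gene bodies on their strand (bedtools 2.31.1, Python 3.11.15, pandas 2.3.3, scipy 1.17.1). The strand of 29 of the 101 genes came from the promoter table and of 72 from GENCODE vM39. Exons were not separated, since mm10 exon positions were not used here. Reads were inferred from log2 and −log10 p (tolerance 0.001), and the inference was tested on simulated data. No test was made between genotypes.

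Members and gene lists were chosen with earlier results of these data known. Named were members enriched in all 3 libraries or in both *Mov10* Deletion libraries only, members with targets in all 3, the 5 with the most targets, the highest log2 or the highest scores per library, and the 5 most frequent miRNAs per library with those the study names and let-7. Other members and miRNAs were named after their values were seen. Alternatives were other thresholds, overlaps, score minimums, read minimums and libraries left out.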

Additional observations from a re-analysis of the deposited data

How the results depend on the processing

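No paired analysis was possible because there was 1 WT library and no result came from a test between groups. With a −log10 p of at least 5, 20 members were enriched in DEL2, 17 in both DEL libraries and 3 in both and not in WT, and 1.80%, 2.26% and 1.22% of member clusters were enriched (WT, DEL1 and DEL2). With a log2 of at least 2 these shares were 3.68%, 6.80% and 3.86%. With 16 IP reads required in every library, 15 members were enriched in DEL2, 13 in both DEL libraries, 12 in all 3, 1 in both and not in WT and 2 in WT alone, and the shares were 2.14% in DEL1 and 0.792% in DEL2. Shares over all protein-coding genes are not given at these other thresholds. Leaving out 1 DEL library and using the other alone gave 30 to 32 members enriched in DEL, 18 to 19 in WT and DEL, 12 to 13 in DEL and not WT, and 0 to 1 in WT alone (1 without DEL1: *Cdh9*). With a score of at least 5 there were 92, 126 and 52 target clusters, miR-124-3p made up 67.7%, 51.6% and 50.9% of assignments, and 16.3%, 7.94% and 13.5% of target clusters lay in the last 1000 nt. Counting only clusters with 1 miRNA, its WT share was 56.3%. A window of 5000 nt in place of 1000 nt held 26.3%, 18.02% and 19.6% of target clusters. Without *Pcdh1*, chosen after seeing the data, 8.41%, 9.84% and 8.14% of clusters in the last 5000 nt were enriched. The other results moved by less than their interval or by less than 1.5 times, including those for clusters overlapping a gene by at least 1 nt and, chosen after seeing the data, those without the 5 longest members. The cause of these changes was not tested, apart from the fewer clusters that a stricter threshold leaves. Total reads per library are unknown, and the median input under the enriched clusters of *Cdh13* was 2, 1 and 1 reads.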
